A study of Mus musculus with 12 samples.

Results

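The DNA damage signalling and repair genes described here are 35 genes of the checkpoint, homologous recombination, Fanconi, excision and mismatch repair pathways. They were chosen by name. Each was read from the probe set with the highest mean over the arrays among those that carry its symbol alone. Of the 35, 33 were measured among 30098 genes. Xrcc2, a relative of the recombinase, was without a probe set in the annotation used, and the only probe set of the strand-break sensor Parp1 is shared with microRNA symbols, so neither was analysed here.

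RNA of 2 established lymphoma lines from mouse spleen (strain C57BL6/CBA) was measured on 12 Affymetrix arrays, 1 per culture, with 3 cultures in each of 4 groups. Both lines came from mice that carry the interferon-inducible Cre transgene Mx1Cre, the B lineage oncogene EµMyc and p53+/-. That p53 genotype is the one of the mice, and the study calls the 3s line itself p53 null. The state of p53 in the lines was not measured here. The 3s line carries Runx1 fl/fl and the 30s line Runx1 WT/WT, so that the induced Cre can excise Runx1, a transcription factor of blood cells, only in 3s cells. Cultures received 50 U/ml IFNβ or vehicle for 72 h and were grown for 6 days more. IFNβ over vehicle in 3s cells is the comparison for excision of Runx1, the same contrast in 30s cells is its control, and the difference between these effects sets one against the other. Each genotype is 1 line, so a difference between 3s and 30s cells is one between lines and cannot be told apart from clonal history. The Runx1 probe set had a mean log2 value of 7.88 after IFNβ and 7.90 with vehicle in 3s cells, with arrays that overlap, and of 8.32 and 8.24 in 30s cells. It is not known here whether this probe set reads the deleted exon, so it does not check the excision. The study reports a PCR check of excision in its IFNβ-treated lines. The labels do not say how far the 3 cultures of a group were separate, so p-values measure only the spread between these cultures.

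All values are log2 values, on which a difference of 1 is a 2-fold difference. Within groups the SD had a median of 0.069 to 0.071 over all genes and 0.043 to 0.066 over the members. The number of arrays limits the precision. Of 7 B cell genes measured, 7 had a group mean above 8 in every group, and their mean level per array lay between 12.4 and 12.8. It was 12.7 to 12.8 in 3s cells and 12.4 to 12.5 in 30s cells. Of 6 myeloid and 6 T and NK cell genes, 0 were above 6, with mean levels of 4.64 to 4.82. Of 2 erythroid and 5 stromal and endothelial genes, only Pecam1, which B cells also express, was above 8. No gene of these lists passed the test after IFNβ in either line or in the difference. In bulk cultures, fewer cells of a kind and less RNA per cell cannot be told apart.

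Cells answer a broken or stalled DNA molecule with kinase signalling that halts the cell cycle and with repair by the pathway that fits the lesion. Homologous recombination copies an intact sister strand, and the Fanconi pathway unhooks crosslinks between strands. Excision repair removes damaged bases or bulky adducts, and mismatch repair corrects replication errors. B lymphocytes also call on these pathways when they cut and mutate their own antigen receptor genes.

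Most members were read well above the bulk of genes. Of the 33, 29 had a mean of 8 or more over the 12 arrays. Rad50, the coiled-coil subunit of a break-sensing complex, was the brightest at 14.14 to 14.24. The 4 dimmer members were the glycosylase Ogg1 and Ercc1, Ercc2 and Ercc4 of nucleotide excision. Ercc2, the helicase of transcription factor IIH, was the dimmest at 6.16 to 6.50 on the probe set used. A brighter probe set that it shares with a microRNA was left out. The map of the members on each array shows that they sort by line more than by treatment.

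**Figure D1:**
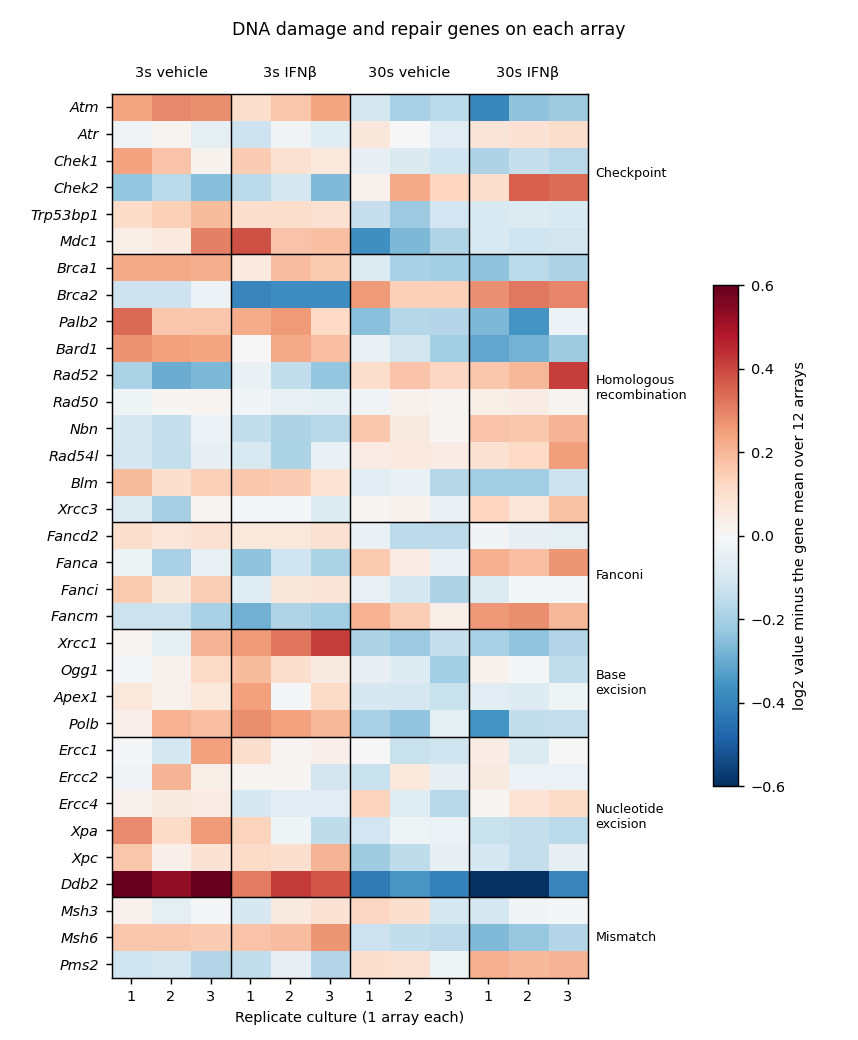
Each row is 1 of the 33 measured members and each column 1 array, ordered by group and replicate, and colour gives the log2 value minus the mean of the gene over the 12 arrays (red above, blue below, values beyond the ends of the scale drawn at its ends). Rows change colour mainly between the 6 arrays of 3s cells and the 6 of 30s cells, most of all Ddb2.

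After IFNβ, of the 33 members 1 passed the test in the 3s line and 0 in the 30s line. In 3s cells Brca2, which loads the recombinase onto resected DNA, fell, 0 members rose and 32 did not pass. The share of members called, 3.03%, stands beside 1.02% of all 30098 genes (0.581% higher, 0.439% lower) and 2.1% of the 8280 genes with a mean of 8 or more, and 1 gene is too few to read from it. The members had a median of -0.03 in 3s cells (all genes -0.002, genes with a mean of 8 or more 0.01). Of them, 4 had an unadjusted p under 0.05 from limma, beside 8.05% of all genes and 991 of the 8280 brighter genes. By the methods' t-test 0 passed after adjustment. The arrays of the groups did not overlap for 10 of 33, beside 13.4% of all genes and 1462 of the 8280 brighter genes. In 30s cells the background was 1.15% of all genes (0.651% higher, 0.498% lower) and 2.58% of the brighter genes. The median of the members was 0.07 (all genes 0.007, genes with a mean of 8 or more 0.04). Of the members, 9 had an unadjusted p under 0.05 from limma, beside 13.5% of all genes and 2071 of the 8280 brighter genes. The groups did not overlap for 15 of 33, beside 18.7% of all genes and 2770 of the 8280 brighter genes. By the methods' t-test 0 members passed in 30s cells after adjustment and 8 without it.

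Brca2 read 10.53, 10.55 and 10.55 on the arrays of IFNβ-treated 3s cells and 10.80, 10.80 and 10.89 with vehicle. In 30s cells it read 11.20, 11.24 and 11.22 after IFNβ and 11.18, 11.07 and 11.07 with vehicle. The IFNβ arrays lay below all vehicle arrays in 3s cells and above all of them in 30s cells. Brca2 thus fell by 0.28 in the 3s line (SE 0.04, 1.22-fold, n = 3 per group, limma adjusted p = 0.00976). With 30s cells the estimate was 0.11 (adjusted p = 0.300), which did not pass. The difference between the effects was -0.39 (SE 0.06, 95% interval -0.53 to -0.26, adjusted p = 0.0129). The call in 3s cells was lost in a fit of those 6 arrays alone (adjusted p = 0.0689), by the methods' t-test (adjusted p = 0.182) and with the fold change cut-off of the study as a further condition, while the difference passed under all 23 alternatives (adjusted p up to 0.0430).

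In the difference between the IFNβ effects, which uses the arrays of both lines, 1 of 33 members passed beside 1.02% of all genes (0.595% higher, 0.425% lower) and 2.33% of the brighter genes, and it was Brca2. Every IFNβ array lay below every vehicle array in 3s cells and above in 30s cells for Brca2, Nbn and Trp53bp1, a pattern of 0.954% of all genes. For patterns over both lines, the share of the brighter genes was not computed. Brighter genes separated more often than all genes within each line, as given above, so the shares of all genes are a low background for bright members. Nbn, the subunit that recruits the checkpoint kinase Atm to breaks, read 11.77, 11.73 and 11.75 after IFNβ and 11.82, 11.78 and 11.88 with vehicle in 3s cells. In 30s cells it read 12.09, 12.08 and 12.12 after IFNβ and 12.08, 11.97 and 11.93 with vehicle. Nbn passed in neither line nor in the difference (-0.18, adjusted p = 0.309), and its groups all but touched. Over genes with a mean of 8 or more, chromosome 4, that of Nbn, had a median of 0.07 in 30s cells. Chromosome 2, that of Trp53bp1, had 0.02. In 3s cells these medians were 0.02 and 0.003. Trp53bp1 read 8.49, 8.49 and 8.48 after IFNβ against 8.49, 8.53 and 8.57 with vehicle in 3s cells, groups set apart by less than the rounding, and passed in neither line. Msh6, the mismatch-binding subunit, showed the opposite pattern, as did 0.701% of all genes, with a difference of 0.13 (adjusted p = 0.444). Atm and Bard1 lay below vehicle on every IFNβ array of both lines, as did 0.724% of all genes, and neither passed in either line. The pattern of IFNβ arrays above vehicle in both lines was found for 0 members and 0.997% of all genes.

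The 4 Fanconi genes had estimates below 0 in 3s cells, from -0.10 to -0.02, and above 0 in 30s cells, from 0.07 to 0.16. Of these estimates 0 passed. Among the 8280 genes with a mean of 8 or more, 5538 had an estimate above 0 in 30s cells and 4664 in 3s cells. Fanca, a scaffold of the core complex, had the largest difference between the effects of the 4 (-0.26, SE 0.09, adjusted p = 0.269). Xrcc1, the scaffold of single-strand break repair, had the largest positive estimate of the members in 3s cells. It read 10.69, 10.76 and 10.85 after IFNβ and 10.45, 10.38 and 10.64 with vehicle, so that the groups did not overlap, against 10.24, 10.20 and 10.26 after IFNβ and 10.25, 10.22 and 10.30 with vehicle in 30s cells. The estimate of 0.28 in 3s cells (SE 0.07, adjusted p = 0.101) did not pass. Without vehicle replicate 3 of 3s cells it was 0.35 (adjusted p = 0.0210), and over genes with a mean of at least 6 it passed as well (adjusted p = 0.0490). Ddb2 and Xpa, which act in damage recognition and verification in nucleotide excision repair, had estimates of -0.27 (adjusted p = 0.300) and -0.23 (adjusted p = 0.244) in 3s cells.

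**Figure D2:**
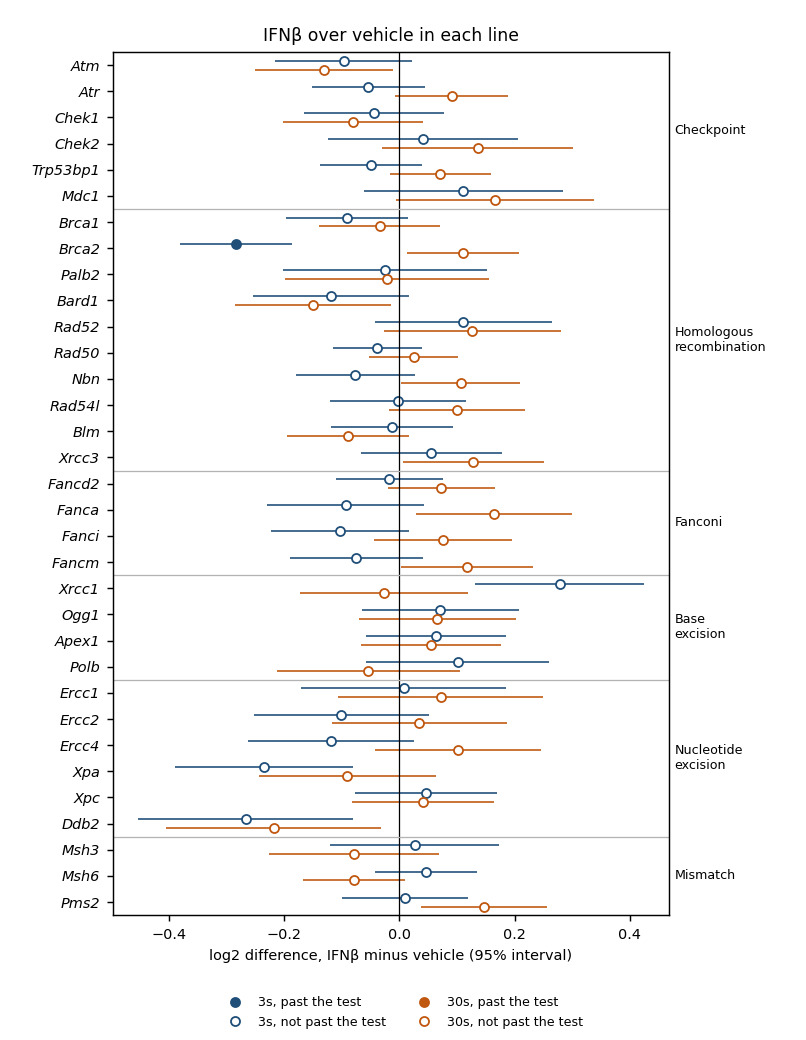
For each member, the points give the log2 difference of IFNβ minus vehicle in 3s cells (blue) and 30s cells (orange), n = 3 arrays per group, and the lines the 95% interval from limma, with filled points past the test. Brca2 in 3s cells, at -0.28, is the only filled point.

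Promoters of the members were set beside these values, since Runx1 binds DNA and the E2F factors drive many S phase genes. Of the 33, 27 have a promoter in the RefSeq table (GRCm38.p6, 250 bases before to 50 after the start of the gene). Both strands were searched for the core Runx motif TGTGGT, for E2F motifs TTTCCCGC, TTTGGCGC and TTTCGCGC, and for CCAAT, the motif of NF-Y. Members were counted once per gene, with a match in any of its promoters. The background counts single promoters, of which a gene can have several, so these shares are not of the same unit. The Runx motif was found in 4 of 27 (14.8%) against 16.8% of 32851 promoters in the table, in Rad54l, Ercc1, Fanca and Apex1. An E2F motif was found in 6 of 27 (22.2%) against 1.84% of all, in Bard1, Chek2, Brca2, Msh3, Mdc1 and Msh6. CCAAT was found in 18 of 27 (66.7%) against 37.4%. The 6 promoters with an E2F match belong to members that were higher in 3s than in 30s cells with vehicle (Bard1, Mdc1, Msh6), lower (Brca2, Chek2) or not past that test (Msh3). A match is a description of the letters and not a site. The promoters of Brca2, of Chek2 and Bard1 as E2F matches of opposite direction between the lines, and of Fanca as a Runx match follow, 5′ to 3′ in the direction of the gene. Capitals mark the matches on either strand.
Brca2 (chr5:150522371-150522670, plus strand, E2F from base 83): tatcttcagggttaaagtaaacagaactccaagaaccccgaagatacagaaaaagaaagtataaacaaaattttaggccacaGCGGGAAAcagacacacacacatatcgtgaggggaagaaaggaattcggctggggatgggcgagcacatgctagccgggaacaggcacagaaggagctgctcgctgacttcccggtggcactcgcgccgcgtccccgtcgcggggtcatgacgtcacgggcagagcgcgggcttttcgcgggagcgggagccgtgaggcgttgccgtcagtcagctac
Chek2 (chr5:110839733-110840032, plus strand, E2F from base 99, CCAAT from bases 65 and 225): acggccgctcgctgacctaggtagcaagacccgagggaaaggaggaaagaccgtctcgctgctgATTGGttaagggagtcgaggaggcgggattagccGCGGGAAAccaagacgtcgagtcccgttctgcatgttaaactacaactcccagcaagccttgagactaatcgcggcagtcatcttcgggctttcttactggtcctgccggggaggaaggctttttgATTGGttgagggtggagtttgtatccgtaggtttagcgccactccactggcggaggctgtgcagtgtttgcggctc
Bard1 (chr1:71102923-71103222, minus strand, E2F from base 42): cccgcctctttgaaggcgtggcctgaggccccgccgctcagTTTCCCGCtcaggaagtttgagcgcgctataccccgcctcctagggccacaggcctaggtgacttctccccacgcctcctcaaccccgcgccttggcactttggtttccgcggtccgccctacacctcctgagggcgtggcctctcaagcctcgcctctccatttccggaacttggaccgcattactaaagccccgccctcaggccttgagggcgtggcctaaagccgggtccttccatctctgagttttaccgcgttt
Fanca (chr8:123318527-123318826, minus strand, Runx from base 180, CCAAT from bases 201 and 228): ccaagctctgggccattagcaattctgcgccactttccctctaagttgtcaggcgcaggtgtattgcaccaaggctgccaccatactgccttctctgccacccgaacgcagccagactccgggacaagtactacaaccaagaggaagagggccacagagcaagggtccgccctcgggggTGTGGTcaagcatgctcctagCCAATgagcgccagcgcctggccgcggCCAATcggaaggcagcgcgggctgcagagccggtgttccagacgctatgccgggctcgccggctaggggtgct

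Between the lines most members differed, and so did most genes with a mean of 8 or more. The 75 other repair genes, given below, were not called more often than those brighter genes. With vehicle 16 of 33 members were higher and 6 lower in 3s than in 30s cells (66.7% called), beside 24.9% of all genes (14.3% higher, 10.6% lower). The members are bright, and among the 8280 genes with a mean of 8 or more 54.2% were called, against 22 of the 29 members of that kind (75.9%). The median of the 33 was 0.17 and that of the brighter genes 0.05. With quantile normalisation and with cyclic loess the split was 11 higher and 9 lower, 17 of the 20 genes being among the 22 in each case, and no call changed direction. With vehicle the calls of Fanci, Polb, Xpc and Xrcc1 were lost with both normalisations, that of Chek1 with quantile normalisation and that of Xpa with cyclic loess. These 6 calls and those of Fancd2, Mdc1, Nbn and Pms2 were also lost by the methods' t-test. After IFNβ, on arrays that this comparison does not share with the first, 14 were higher and 9 lower (69.7% beside 26.9% of all genes and 58.2% of the brighter genes), with a median of 0.12. The comparisons are not independent, since they share an estimate of spread per gene and set the same lines side by side. Of the members, 19 passed in both, all in the same direction, 13 higher and 6 lower. That is 86.4% of the 22 and 82.6% of the 23, where for the brighter genes 86.3% and 80.3% were called in both. The arrays of the lines did not overlap for 25 of 33 members with vehicle, beside 38.2% of all genes and 5547 of the 8280 brighter genes. After IFNβ they did not overlap for 28 of 33, beside 39% of all genes and 5759 of the brighter genes.

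Of 6 checkpoint genes, 4 were higher and 1 lower in 3s cells with vehicle (83.3%, beside 24.9% of all genes and 54.2% of the brighter genes). Atm, the kinase that double-strand breaks activate, read 11.92, 11.97 and 11.96 in 3s cells and 11.58, 11.49 and 11.52 in 30s cells with vehicle. It was higher in 3s cells by 0.42 (SE 0.05, 1.34-fold, adjusted p = 0.000123 from limma). Mdc1, the adaptor that spreads the signal along chromatin, read 11.17, 11.19 and 11.43 against 10.76, 10.86 and 10.95, a difference of 0.40 (SE 0.08, adjusted p = 0.00233). Trp53bp1, another chromatin adaptor, and Chek1, the kinase below Atr, were higher by 0.31 and 0.23. Chek2, the kinase below Atm, went the other way, with 10.37, 10.44 and 10.35 in 3s cells and 10.63, 10.83 and 10.73 in 30s cells (-0.34, SE 0.08, 1.27-fold, adjusted p = 0.00498). The lines did not overlap for Atm, Mdc1 or Chek2, so that Atm and the kinase below it differed in opposite directions. After IFNβ the 5 differed the same way (Atm 0.45, Mdc1 0.35, Trp53bp1 0.19, Chek1 0.26, Chek2 -0.44). Atr, the kinase of stalled forks, was lower after IFNβ by 0.16 (adjusted p = 0.0173, lost with median centring and without IFNβ replicate 3 of 30s cells or replicate 1 of 3s cells) and did not pass with vehicle (-0.02, 95% interval -0.12 to 0.08).

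Of 10 homologous recombination genes, 4 were higher and 3 lower with vehicle (70%, beside 24.9% of all genes and 54.2% of the brighter genes). The higher genes included the Brca1 complex. Brca1, the ubiquitin ligase that promotes resection, read 11.00, 11.00 and 10.99 in 3s cells and 10.69, 10.58 and 10.57 in 30s cells (0.38, SE 0.05, adjusted p = 9.54e-05). Palb2, which joins Brca1 to Brca2, read 10.05, 9.87 and 9.88 against 9.46, 9.54 and 9.53 (0.42, SE 0.08, adjusted p = 0.00205). Bard1, the partner of Brca1 in the ligase, was higher by 0.37 and the helicase Blm by 0.24. Brca2, Rad52 and Nbn went the other way. Brca2 was lower in 3s cells by 0.28 with vehicle (adjusted p = 0.000559) and by 0.67 after IFNβ (SE 0.04, 1.59-fold, adjusted p = 4.03e-07). Rad52, which anneals single strands, read 8.44, 8.33 and 8.36 in 3s cells and 8.73, 8.80 and 8.76 in 30s cells (-0.39, SE 0.07, adjusted p = 0.00144). The arrays of the lines did not overlap for Brca1, Palb2, Brca2 or Rad52. Nbn was lower by 0.16 (adjusted p = 0.0232), a call that needs vehicle replicate 1 of 30s cells and vehicle replicates 1 and 2 of 3s cells, and by 0.35 after IFNβ (adjusted p = 0.000140). After IFNβ the translocase Rad54l was lower as well (-0.26, adjusted p = 0.00332). Rad50 and the recombinase relative Xrcc3 passed in neither comparison.

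Of 4 Fanconi genes, 2 were higher and 1 lower with vehicle, and 0 were higher and 2 lower after IFNβ. The share was 75% with vehicle, beside 24.9% of all genes and 54.2% of the brighter genes. After IFNβ it was 50%, beside 26.9% and 58.2%. Fancm, the translocase that anchors the core complex, read 10.06, 10.06 and 9.99 in 3s cells and 10.40, 10.34 and 10.23 in 30s cells with vehicle (-0.28, SE 0.05, adjusted p = 0.00172), and was lower by 0.47 after IFNβ (adjusted p = 2.83e-05). Fanci and Fancd2 form the pair that the core complex ubiquitinates. Fanci read 10.67, 10.58 and 10.66 against 10.47, 10.41 and 10.33 with vehicle (0.24, SE 0.05, adjusted p = 0.00692), a call lost with both normalisations (down to 0.15). Fancd2 read 11.57, 11.54 and 11.56 against 11.43, 11.31 and 11.31 (0.21, SE 0.04, adjusted p = 0.00341). The 3 genes had no overlap between the lines with vehicle. After IFNβ Fanci (0.06, adjusted p = 0.530) and Fancd2 (0.12, adjusted p = 0.0677) did not pass, while Fanca was lower by 0.40 (adjusted p = 0.000373), which did not pass with vehicle (-0.14, adjusted p = 0.126). The tests of these changes are the differences between the IFNβ effects given above, of which 0 passed for the Fanconi genes.

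Of the 10 excision repair genes, 5 were higher and 0 lower in each comparison of the lines. That is 50%, which is below the share of the brighter genes (54.2% with vehicle, 58.2% after IFNβ). Of all genes 24.9% and 26.9% were called. Ddb2, which recognises ultraviolet lesions in chromatin and in human cells is a target of p53, stood furthest apart. It read 9.84, 9.65 and 9.76 in 3s cells and 8.69, 8.77 and 8.71 in 30s cells with vehicle. It was higher in 3s cells by 1.03 with vehicle (SE 0.08, 95% interval 0.84 to 1.21, 2.04-fold, adjusted p = 3.65e-06) and by 0.98 after IFNβ (adjusted p = 3.88e-06). Both passed under all 24 alternatives. Xpc, the sensor of helix distortion, read 9.33, 9.20 and 9.25 against 8.95, 9.01 and 9.12 with vehicle (0.23, SE 0.06, adjusted p = 0.00914), a call lost with quantile normalisation and cyclic loess (down to 0.14). Xpa, which verifies the lesion, read 10.44, 10.27 and 10.41 against 10.04, 10.13 and 10.12 (0.28, SE 0.07, adjusted p = 0.0113, lost with cyclic loess). Neither overlapped between the lines with vehicle, and Xpa did not pass after IFNβ (0.14, adjusted p = 0.205). Ercc1 and Ercc4, the subunits of the nuclease that cuts on one side of the lesion, and Ercc2 passed in neither comparison.

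Among the base excision genes, Polb, the polymerase that fills the gap, read 10.12, 10.30 and 10.27 in 3s cells and 9.89, 9.86 and 10.03 in 30s cells with vehicle (0.30, SE 0.07, adjusted p = 0.00903), a call lost with both normalisations, and was higher by 0.46 after IFNβ (adjusted p = 0.000469). Xrcc1 was higher by 0.23 with vehicle (adjusted p = 0.0236) and by 0.54 after IFNβ (SE 0.07, adjusted p = 6.97e-05). The vehicle call of Xrcc1 was lost with both normalisations (0.15 in each) and on leaving out vehicle replicate 1 or 2 in 30s cells or vehicle replicate 3 in 3s cells. Apex1, the nuclease that cuts at abasic sites, was higher after IFNβ by 0.17 (adjusted p = 0.0373), a call lost with both normalisations and on leaving out IFNβ replicate 1 or 3 or vehicle replicate 1 in 3s cells, or IFNβ replicate 1, 2 or 3 or vehicle replicate 2 in 30s cells, and missed the threshold with vehicle (0.17, adjusted p = 0.050). Ogg1, which removes oxidised guanine, passed in neither.

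Mismatch repair genes differed in opposite directions. Msh6 read 13.48, 13.48 and 13.47 in 3s cells and 13.19, 13.17 and 13.16 in 30s cells with vehicle (0.30, SE 0.04, adjusted p = 0.000153), and was higher by 0.43 after IFNβ (adjusted p = 7.46e-06). Pms2, the nuclease subunit of the complex that acts after mismatch binding, read 11.31, 11.32 and 11.25 against 11.53, 11.52 and 11.40 (-0.19, SE 0.05, adjusted p = 0.0138), a call lost on leaving out any of the same 3 arrays. It was lower by 0.33 after IFNβ (adjusted p = 0.000319). The lines overlapped for neither. Msh3, which recognises larger loops, passed in neither comparison.

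**Figure D3:**
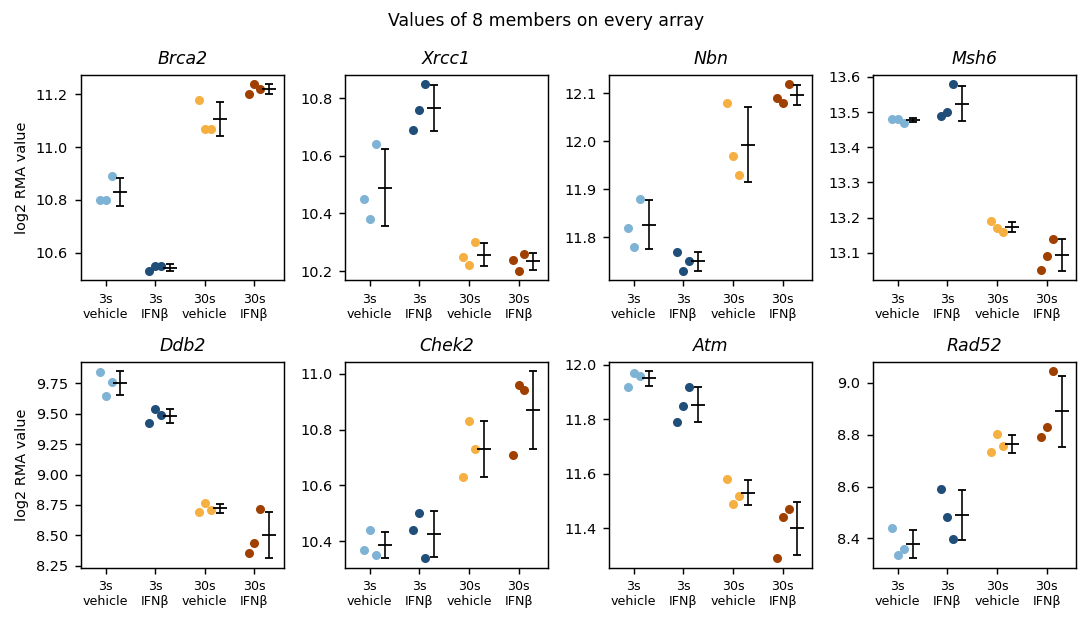
Each point is 1 array, on a log2 axis that differs between panels and does not start at 0, with the mean and SD (n = 3) of each group beside it. Ddb2, Atm and Msh6 lie higher in 3s cells and Chek2, Rad52, Nbn and Brca2 lower, and Brca2 lies lower after IFNβ in 3s cells only.

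**Figure D4:**
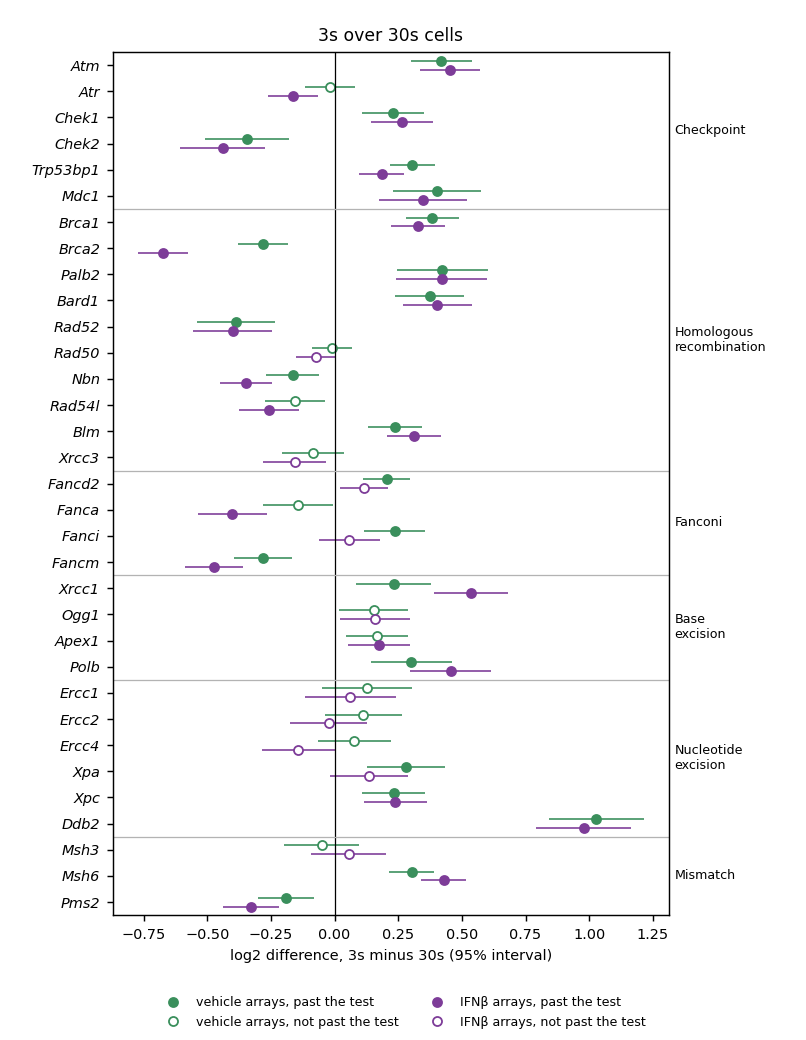
For each member, the points give the log2 difference of 3s minus 30s cells on the vehicle arrays (green) and the IFNβ arrays (purple), n = 3 per group, and the lines the 95% interval from limma, with filled points past the test. Filled points lie on both sides of 0 in every pathway except base and nucleotide excision, and Ddb2 near 1 stands apart.

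The sign of a line difference went with the chromosome of the gene in part. Over the genes with a mean of 8 or more, the median difference with vehicle ran from -0.09 on chromosome 14 to 0.26 on chromosome 7 among the chromosomes that hold members, and was -0.05 on chromosome 5. The members on chromosome 5 (Chek2, Brca2 and Pms2) were all lower in 3s cells, and Palb2, Blm, Fanci and Xrcc1 on chromosome 7 were all higher. Other called members had the opposite sign to the median of their chromosome. These were Rad52 (-0.39 against 0.17), Brca1 (0.38 against -0.02) and Xpa (0.28 against -0.04). Atr, Fanca, Apex1, Ercc4 and Msh3, not called with vehicle, had estimates of the opposite sign as well. After the median of its chromosome was subtracted, 18 of the 22 members called with vehicle kept their sign. Chek1, Blm, Fanci and Xrcc1 did not, their differences being below the median of their chromosome. All 23 called after IFNβ kept their sign. Copy number was not measured here, and its part in these differences was not tested.

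**Figure D5:**
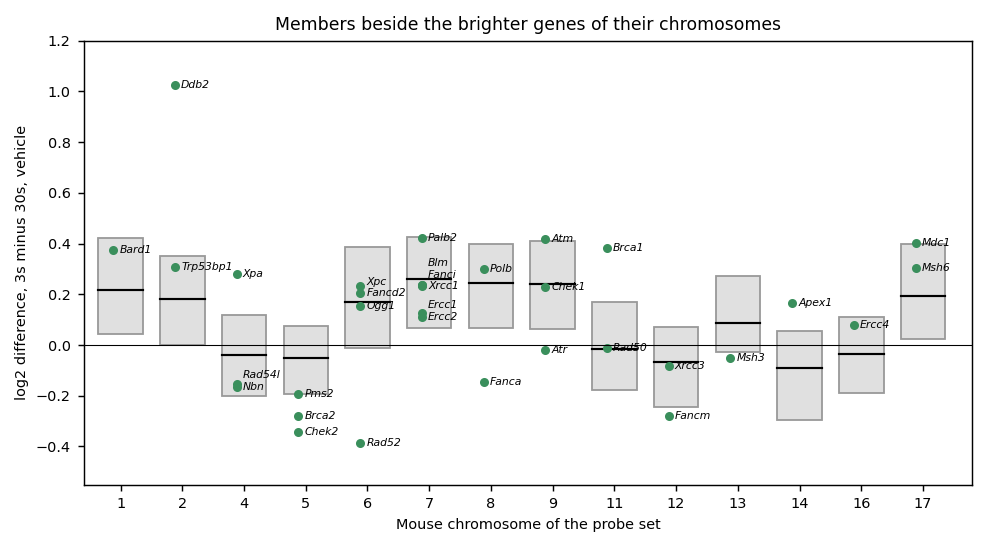
Boxes give the quartiles and bars the median of the log2 difference of 3s minus 30s cells with vehicle over genes with a mean of 8 or more on each chromosome that holds a member, and points give the members. Ddb2, Rad52, Fanca and Chek2 lie well outside the box of their chromosome, while Blm, Fanci and Chek1 lie inside it.

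Of 75 other repair genes measured, 1 rose after IFNβ in 3s cells (1.33% beside 1.02% of all genes) and 4 rose in 30s cells (5.33% beside 1.15%). Neil1, a glycosylase for oxidised bases, rose in 3s cells from 8.86 ± 0.07 to 9.53 ± 0.06 (SD, n = 3 each), by 0.67 (SE 0.05, adjusted p = 0.000106), and read 10.46 ± 0.06 with vehicle and 10.62 ± 0.07 after IFNβ in 30s cells. Its call in 3s cells was lost by the methods' t-test alone (adjusted p = 0.105). Its difference between the effects was 0.51 (adjusted p = 0.00898), and with vehicle it was lower in 3s cells by 1.60 (adjusted p = 3.00e-09). In 30s cells Dna2, a resection nuclease, rose by 0.41 (adjusted p = 0.0105), Ddb1, the partner of Ddb2, by 0.26 (adjusted p = 0.0156), Gtf2h3 of transcription factor IIH by 0.29 (adjusted p = 0.0222) and the mitotic phosphatase Cdc25c by 0.23 (adjusted p = 0.0416). Each of these 4 calls was lost in a fit of the 30s arrays alone and on leaving out IFNβ replicate 1 in 30s cells. Ddb1 was also lost without IFNβ replicate 2 or vehicle replicate 2 or 3 of that line, Gtf2h3 without IFNβ replicate 3 or vehicle replicate 1 or 2, and Cdc25c without 11 of the 12 arrays, each in turn. Between the lines with vehicle 29 of the 75 were higher and 11 lower (53.3%, beside 24.9% of all genes and 54.2% of those with a mean of 8 or more). The furthest were Eme1, a subunit of a junction-cutting nuclease (1.03), and Ube2t, the ubiquitin-conjugating enzyme of the Fanconi pathway (0.85), and, on the lower side, Neil1 and Ddb1 (-0.75). Ddb2 and Ddb1, which form 1 complex, thus differed in opposite directions, by 1.03 and -0.75. After IFNβ, 19 of the 75 other repair genes were higher and 15 lower in 3s than in 30s cells. That is 45.3%, beside 26.9% of all genes and 58.2% of the brighter genes.

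The cell cycle and p53 were described by lists of their own. Of 15 replication genes 0 passed after IFNβ in either line, and 10 were higher and 0 lower in 3s cells with vehicle (66.7%, beside 24.9% of all genes and 54.2% of the brighter genes). Of 13 mitotic genes 0 passed after IFNβ in either line, and 4 were higher and 3 lower between the lines with vehicle (53.8%). Of 8 targets of p53, Cdkn1a, the kinase inhibitor p21, fell in 3s cells after IFNβ by 0.80 (SE 0.10, adjusted p = 0.00153) on a dim probe set that read 6.59 ± 0.10 with vehicle and 5.79 ± 0.19 after IFNβ (SD, n = 3 each). Trp53inp1, a stress-induced regulator of p53, rose by 0.28 (adjusted p = 0.00696), a call lost in a fit of those 6 arrays alone, by the methods' t-test (adjusted p = 0.0971) and with the fold change cut-off of the study. The call of Cdkn1a was lost by the methods' t-test alone (adjusted p = 0.271). The share of the list called in 3s cells was 25%, beside 1.02% of all genes, and 0 of the 8 passed after IFNβ in 30s cells. The called genes moved in opposite directions and are too few to read from this share. In the difference between the effects 1 of the 8, Cdkn1a, passed (12.5%, beside 1.02% of all genes). With vehicle 1 of the 8 was higher and 3 were lower in 3s cells (50%, beside 24.9% of all genes and 54.2% of the brighter genes). Among the lower was Trp53inp1, by 1.86 (adjusted p = 9.37e-11).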

How the data were processed

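RNA of 12 cultures was hybridised to Affymetrix GeneChip MTA 1.0 arrays. The deposited values are log2 values made by the authors with RMA, per the labels with Affymetrix Expression Console 1.4 and in the paper's methods with Partek Genomics Suite, and were used as given. For the array annotation, the build was not given in the sources used here. Cell name and treatment set the groups, since the genotype entry of the labels follows treatment. Of 72688 probe sets, 30638 carry 1 symbol (2176 several, 33142 none, 6732 controls). These gave 30098 genes, each read by its brightest probe set of 1 symbol. Ercc2 has a brighter probe set shared with a microRNA, which was not used.

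The 4 group means were fitted together in limma 3.58.1 (R 4.3.3, 8 residual degrees of freedom, prior 3.15), with two-sided moderated tests adjusted by Benjamini-Hochberg over all genes. Adjusted p under 0.05 is called passing. The fit was tested on simulated data without line differences, with planted changes larger than that of Brca2 after IFNβ. That test does not show how often changes as small as that of Brca2 are found. Members and lists were chosen with earlier results of these data known. All members were counted by pathway. Values per array are given for those past an IFNβ test or the difference and for up to 3 of each pathway with the largest line difference past the test with vehicle. Of the other repair genes, up to 6 with the smallest adjusted p after IFNβ or in the difference, and the 2 furthest each way between the lines, are named. Nbn, Trp53bp1, Msh6, Xrcc1, Fanca, Ddb2 and Xpa after IFNβ were described after their values were seen, as was the comparison with brighter genes and chromosomes. Alternatives were cyclic loess, quantile normalisation, median centring, only the 6 arrays compared, a replicate block, the methods' t-test, array weights and an intensity trend. Further ones were genes with a mean of at least 6, the mean over probe sets, a fold change over 1.25 and leaving out each array. The paper's methods name no test of the difference. For it, the t-test was an unmoderated one on the spread of the fit of 4 group means, with 8 residual degrees of freedom.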

Additional observations from a re-analysis of the deposited data

Results flagged for a closer look

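The tests of the difference between the IFNβ effects in 3s and 30s cells picked out 1 member, 2 other repair genes and 1 target of p53. The effect of IFNβ on Brca2 was lower in 3s than in 30s cells by 0.39 on the log2 scale (difference -0.39, adjusted p = 0.0129 from limma). Dna2 had a difference of -0.46 (adjusted p = 0.0324), the estimates being -0.04 with 3s and 0.41 with 30s cells, and 9 of the 12 fits that leave out 1 array lost it. Neil1 had a difference of 0.51 (adjusted p = 0.00898), which passed under all 23 alternatives. Cdkn1a had a difference of -0.84 (adjusted p = 0.0132), lost only by the unmoderated t-test of the difference (adjusted p = 0.0610). Groups of 3 arrays are too small to test for outlying samples.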

How the results depend on the processing

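No result changed direction under any alternative. The count of members past the test after IFNβ in 3s cells, 1 in the fit reported, was 0 when only the 6 arrays were fitted, 0 by the methods' t-test, 0 with the fold change cut-off of the study, 4 by that t-test without adjustment and 2 over genes with a mean of at least 6, and ran from 1 to 2 when each array was left out, with 2 without vehicle replicate 3 of 3s cells. In 30s cells it was 0 under all but the t-test without adjustment, which gave 8. For the difference it was 11 by the unmoderated t-test of the difference without adjustment and 1 otherwise. The count between the lines with vehicle, 22, fell to 14 by the methods' t-test and to 8 with that cut-off, and was 20 to 24 otherwise. After IFNβ it was 16 to 26. Counts over all genes in 30s cells went from 346 to 0 with only its own arrays, to 1 by the methods' t-test and to 741 over genes with a mean of at least 6, and to 97 without IFNβ replicate 1 of 30s cells.

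With the replicate number as a block, 1, 0, 1, 23 and 23 members passed in 3s cells, in 30s cells, in the difference, and between the lines with vehicle and after IFNβ. Same-numbered arrays had correlations of -0.284 to 0.231 in their deviations from the group means, and arrays of unlike numbers -0.459 to 0.335. With 3 arrays per group these correlations cannot tell whether the numbers pair the cultures. Ercc1, Ercc2, Ercc4 and Ogg1 are read below 8, where a difference is harder to see. The cause of the changes between settings was not tested.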
